A study of Mus musculus with 12 samples.

Results

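This account covers 10 genes of neutrophil recruitment and neutrophil identity among the 34678 gene symbols measured in mouse tumors of a lung carcinoma line, of which 15350 reached the level needed for testing, a mean of at least 0.1 FPKM over the 12 tumors. FPKM is the number of sequenced fragments of a gene scaled to its length and to the size of the library. The genes were chosen by name, as the CXCR2 ligands Cxcl1, Cxcl2, Cxcl3 and Cxcl5, the receptor gene Cxcr2, the neutrophil products S100a8 and S100a9, the growth factor Csf3 with its receptor Csf3r, and the cytokine Il1b, and all 10 of 10 passed the filter on low values. Earlier results of these data were known when they were chosen. The tumors grew in C57BL/6 mice from LLC1-shLkb1 cells, a Lewis lung carcinoma line in which a short hairpin RNA lowers Lkb1, the gene of a tumor suppressor kinase. The paper describes injection under the skin and into the left chest, and its RNA sequencing section does not name the site. All 4 arms carried that knockdown, so no tumor with intact Lkb1 stood beside them. The vehicle arm received control IgG, the palbociclib arm the CDK4/6 inhibitor palbociclib by mouth, the anti-PD-1 arm an antibody against the checkpoint receptor PD-1 and the combination arm both agents, for 2 weeks in all until the tumors were taken. Each arm held 3 tumors from different mice, whose age the labels do not give. All 12 grew from 1 knockdown line, which limits the model.

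Neutrophils follow chemokines that carry an ELR motif before their paired cysteines. Cxcl1, Cxcl2, Cxcl3 and Cxcl5 are such ligands, made by tumor cells, stroma and myeloid cells, and they bind the receptor that Cxcr2 encodes on the neutrophil surface. Csf3 encodes granulocyte colony-stimulating factor, which drives neutrophil production through the receptor of Csf3r, while S100a8 and S100a9 encode the calcium-binding pair calprotectin that fills the neutrophil cytoplasm, and Il1b encodes interleukin 1 beta, a cytokine that induces several of these chemokines. In lung tumors these genes are followed as marks of neutrophil-rich myeloid infiltrates.

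The libraries were of like depth, with an estimated 14871800 to 20272600 fragments each. Neutrophil identity was only partly represented. Csf3r, S100a8 and S100a9 were measured in every tumor and the surface marker gene Ly6g averaged 0.281 FPKM, whereas among 5 primary granule genes of immature neutrophils only Prtn3 and Ctsg passed the filter. Other tissue was uneven among the libraries. Summed over 7 keratinocyte markers, palbociclib replicate 2 held 373.6 FPKM against 0.942 to 2.35 in the other 11 tumors. The 5 skeletal muscle markers summed to 147.2 FPKM in palbociclib replicate 3, 143.1 in combination replicate 2 and 51.1 in vehicle replicate 1, against 0.729 to 9.73 in the other 9. S100a8 and S100a9 are also made by stressed keratinocytes, and S100a8 in palbociclib replicate 2 was 5.47 FPKM, against 5.77 and 3.19 in the other tumors of its arm. The part of keratinocytes was not tested.

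In every one of the 10 genes the palbociclib-treated tumors had the lower mean level, with and without anti-PD-1, but no gene passed the test after correction over all genes. The median log2 difference of the members was -1.79 in the palbociclib effect, the mean of palbociclib against vehicle and of combination against anti-PD-1, where the median of all genes was 0.06. A difference below 0 was found in 40.2% of all genes tested. The limma test on log2(FPKM + 0.1) called 0 of the 10 at an adjusted p under 0.05, where 0.313% of all genes were called. At an unadjusted p under 0.05 it placed 8 of the 10 lower, where 6.44% of all genes were. The 10 genes are not independent of each other, since most of them rose and fell together from tumor to tumor. Pearson's r between pairs of members ran from 0.32 for Cxcl1 with Cxcl5 to 0.98 for S100a8 with S100a9. Counts of members, here and in the comparisons below, are therefore not counts of separate observations. In RNA of whole tumors, fewer neutrophils and less RNA per cell cannot be told apart. The paper separately reports fewer myeloid-derived suppressor cells and tumor-associated neutrophils in tumors after CDK4/6 inhibition. Whether that accounts for the lower levels here was not tested.

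The spread within arms was as large a feature as the difference between them. Vehicle replicate 3 and anti-PD-1 replicates 2 and 3 were the 3 highest tumors for 9 of the 10 genes, the exception being Cxcl5, a pattern seen in 2% of all genes and counted after the values were seen. Vehicle replicate 3 was the highest of all 12 for every member but Cxcl3. The lowest tumor was palbociclib-treated for 9 members and a vehicle tumor for Cxcl5. When the 4 arms were ordered by mean, 28 of the 30 neighboring pairs had overlapping ranges. No share over all genes was taken for that count, so it is not read as particular to these genes. The vehicle arm led for 7 members and the anti-PD-1 arm for Cxcl3, Cxcr2 and Csf3r, with both palbociclib-treated arms behind in every case.

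**Figure D1:**
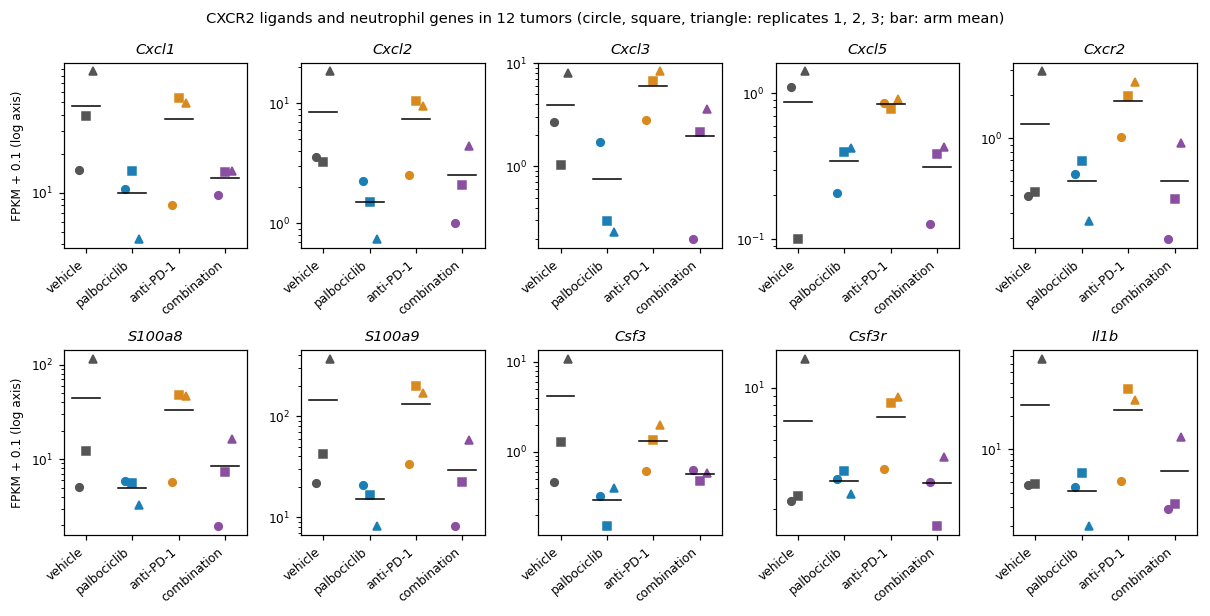
FPKM + 0.1 on a log axis for the 10 genes, 1 point per tumor (circle, square and triangle for replicates 1, 2 and 3) and a bar at each arm's mean, for vehicle, palbociclib, anti-PD-1 and combination. Vehicle replicate 3 and anti-PD-1 replicates 2 and 3 stand above the other 9 tumors for all genes but Cxcl5.

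The ligand genes lie together on chromosome 5 of GRCm38, on the + strand, with Cxcl5 at chr5:90759360-90761624, Cxcl3 at chr5:90786103-90789600, Cxcl1 at chr5:90891241-90893115 and Cxcl2 at chr5:90903871-90905938. Because Cxcl1, Cxcl2 and Cxcl3 share sequence, and how fragments that match more than one gene were counted is not given in the sources used here, a part of their values may be shared. Promoter sequence, 250 bases before to 50 after the RefSeq start on GRCm38.p6, was held for 8 of the 10 genes and not for Cxcl5 and Csf3. Cxcl1, Cxcl2 and Cxcl3 had an identical 10-base match to the kappaB pattern bound by NF-kappaB (GGG, then any 3 bases, then TTCC), and their promoters are shown for it. In these stretches, read 5′ to 3′ on the + strand, capitals mark the match that all 3 share.
Cxcl1: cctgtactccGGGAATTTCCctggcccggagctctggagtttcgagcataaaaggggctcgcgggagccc
Cxcl2: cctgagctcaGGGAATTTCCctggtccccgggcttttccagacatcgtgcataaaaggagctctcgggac
Cxcl3: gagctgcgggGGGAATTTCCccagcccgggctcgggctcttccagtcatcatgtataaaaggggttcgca
The stretches are chr5:90891164-90891233, chr5:90903792-90903861 and chr5:90786018-90786087. The match begins at positions -71, -97 and -73 from the RefSeq start and overlaps a match on the other strand shifted by 1 base. A further match, left in lower case, begins at -78 in Cxcl2 and at -50 in Cxcl3. Cxcl1 has a further match on the other strand, which begins at -89, before the stretch shown. On either strand, the kappaB pattern was present in 4 of the 8 promoters, those of Cxcl1, Cxcl2, Cxcl3 and Csf3r, and in 5.56% of 32851 promoters of the same 300-base length. As Cxcl1, Cxcl2 and Cxcl3 are neighboring genes that share sequence, their matches are not independent of each other. The C/EBP pattern TTGCNNAA was present in 1 of 8, that of S100a9, against 10.8% of all promoters, and the AP-1 pattern TGANTCA in 0 of 8 against 7.81%. These are matches of letters, and binding was not measured.

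Cxcl1, the most abundant of the ligand genes in FPKM, measured 14.9, 38.7 and 85.9 FPKM in the vehicle tumors and 10.7, 14.6 and 4.27 in the palbociclib tumors. It measured 8.01, 54.0 and 49.2 with anti-PD-1 and 9.57, 14.3 and 14.6 in the combination. All 3 palbociclib tumors lay below all 3 vehicle tumors, the nearest by a small margin, while anti-PD-1 replicate 1 lay below the whole combination arm. Cxcl1 was 3.02-fold lower in the palbociclib effect (log2 difference -1.60 ± 0.55 SE, adjusted p = 0.153 by limma with Benjamini-Hochberg adjustment, 12 tumors).

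Cxcl2, whose product shares the receptor and most functions of Cxcl1, measured 3.49, 3.16 and 18.3 FPKM in the vehicle tumors and 2.14, 1.40 and 0.632 in the palbociclib tumors. The anti-PD-1 tumors held 2.42, 10.3 and 9.31 and the combination tumors 0.896, 1.99 and 4.31. The palbociclib arm again lay wholly below vehicle, and the combination and anti-PD-1 arms overlapped. Cxcl2 was 3.65-fold lower in the palbociclib effect (log2 difference -1.87 ± 0.56 SE, adjusted p = 0.124), the smallest adjusted p of the 10 genes.

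Cxcl3, another neutrophil attractant of the cluster, measured 2.60, 0.934 and 7.85 FPKM in the vehicle tumors and 1.63, 0.194 and 0.134 in the palbociclib tumors. With anti-PD-1 it measured 2.73, 6.66 and 8.20, and in the combination 0.0968, 2.08 and 3.49. It had the largest log2 difference of the 10 genes in the palbociclib effect, -2.37 ± 0.79 SE or 5.18-fold lower, with an adjusted p of 0.149, and the ranges of neighboring arms overlapped throughout.

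Cxcl5, best known as an epithelial CXCR2 ligand, was the weakest of the 10 with an estimated 195 fragments over all tumors, against 10522 for Cxcl1. Its levels were 0.997, 0 and 1.31 FPKM in the vehicle tumors and 0.109, 0.297 and 0.320 in the palbociclib tumors. With anti-PD-1 they were 0.761, 0.676 and 0.810, and in the combination 0.0275, 0.283 and 0.327. The combination arm lay wholly below the anti-PD-1 arm, whereas vehicle replicate 2, listed at 0, was the lowest tumor of all. Cxcl5 had a log2 difference of -1.17 ± 0.60 SE in the palbociclib effect (adjusted p = 0.291).

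A further CXCR2 ligand gene outside the 10, Ppbp, which platelets store, averaged 14.0 FPKM and had its highest mean with anti-PD-1. It measured 8.47, 5.33 and 21.6 FPKM in vehicle, 7.46, 1.43 and 1.56 with palbociclib, 25.2, 24.7 and 45.1 with anti-PD-1 and 0.461, 10.7 and 16.3 in the combination. All combination tumors lay below all anti-PD-1 tumors. Ppbp had a log2 difference of -2.31 ± 0.78 SE in the palbociclib effect (adjusted p = 0.15). The second receptor gene Cxcr1 and the lung ligand gene Cxcl15 fell under the filter.

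The receptor gene Cxcr2 measured 0.294, 0.320 and 2.84 FPKM in vehicle and 0.457, 0.587 and 0.160 with palbociclib. It measured 0.923, 1.87 and 2.39 with anti-PD-1 and 0.0948, 0.277 and 0.832 in the combination. Vehicle replicates 1 and 2 lay within the range of the palbociclib arm, while the combination arm lay wholly below the anti-PD-1 arm. Combination against anti-PD-1 was the one comparison of single arms in which Cxcr2 had an unadjusted p under 0.05 (log2 difference -2.07 ± 0.79 SE, adjusted p = 0.354 by limma). In the palbociclib effect Cxcr2 was 2.67-fold lower (log2 difference -1.41 ± 0.56 SE, adjusted p = 0.196).

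Csf3, the ligand of the growth factor pair, measured 0.366, 1.19 and 10.8 FPKM in vehicle and 0.218, 0.0476 and 0.299 with palbociclib. It measured 0.518, 1.26 and 1.87 with anti-PD-1 and 0.530, 0.371 and 0.480 in the combination. Vehicle replicate 3 alone held 309 of the estimated 480 Csf3 fragments of all tumors, and palbociclib replicate 2 held 1. The palbociclib tumors lay wholly below vehicle and wholly below the combination. Csf3 was 3.87-fold lower in the palbociclib effect (log2 difference -1.95 ± 0.65 SE, adjusted p = 0.146).

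Csf3r, the receptor that Csf3 acts on, measured 2.14, 2.27 and 14.6 FPKM in vehicle and 2.88, 3.23 and 2.35 with palbociclib. It measured 3.29, 8.08 and 8.75 with anti-PD-1 and 2.77, 1.49 and 3.91 in the combination. Vehicle replicates 1 and 2 lay below all 3 palbociclib tumors, so the lower palbociclib mean rested on vehicle replicate 3. Csf3r had the smallest difference of the 10 genes, 1.87-fold lower in the palbociclib effect (log2 difference -0.90 ± 0.46 SE, adjusted p = 0.29). Without vehicle replicate 3 that log2 difference was -0.46.

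S100a8 measured 4.92, 11.996 and 115.7 FPKM in vehicle and 5.77, 5.47 and 3.19 with palbociclib. It measured 5.68, 47.1 and 46.0 with anti-PD-1 and 1.84, 7.28 and 16.2 in the combination. The arms overlapped in both comparisons, since vehicle replicate 1 and anti-PD-1 replicate 1 were as low as treated tumors. S100a8 was 3.90-fold lower in the palbociclib effect (log2 difference -1.96 ± 0.82 SE, adjusted p = 0.215).

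S100a9, its partner, measured 21.8, 42.4 and 370.4 FPKM in vehicle and 20.8, 16.5 and 8.04 with palbociclib. It measured 33.3, 196.7 and 167.8 with anti-PD-1 and 8.06, 22.2 and 58.7 in the combination. The palbociclib arm lay wholly below vehicle, though palbociclib replicate 1 and vehicle replicate 1 were close. S100a9 was 4.83-fold lower in the palbociclib effect (log2 difference -2.27 ± 0.74 SE, adjusted p = 0.143). The S100a9 level was 2.52 to 5.86 times the S100a8 level within single tumors, with a median of 3.61, a far narrower range than that of either gene.

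Il1b measured 4.64, 4.72 and 66.8 FPKM in vehicle and 4.43, 5.98 and 1.87 with palbociclib. It measured 5.06, 35.0 and 28.1 with anti-PD-1 and 2.73, 3.05 and 12.8 in the combination. Vehicle replicates 1 and 2 lay within the palbociclib range. Il1b was 3.28-fold lower in the palbociclib effect (log2 difference -1.71 ± 0.75 SE, adjusted p = 0.23). Against Il1rn, the gene of its natural antagonist, Il1b was 8.97 times as high in vehicle replicate 3 and 11.2 and 8.52 times in anti-PD-1 replicates 2 and 3. In the other 9 tumors that ratio lay between 1.24 and 3.02.

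**Figure D2:**
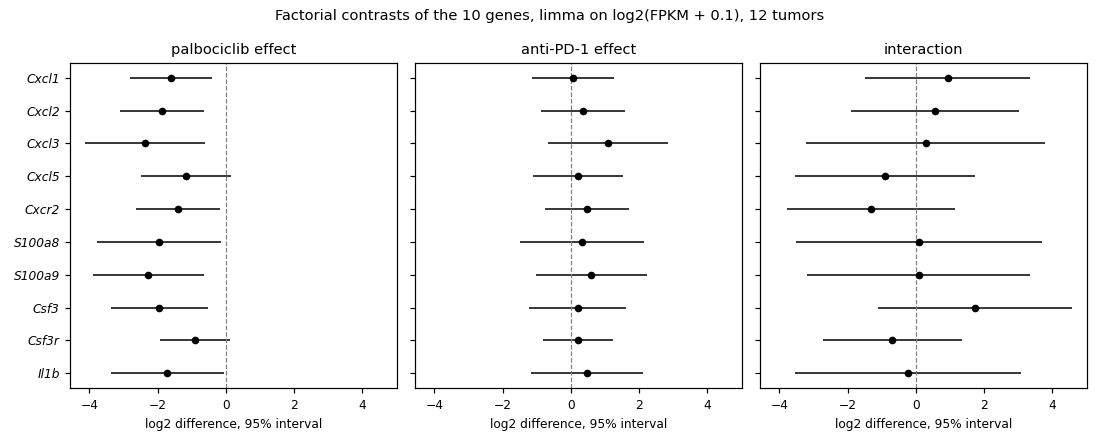
Log2 differences of the 10 genes with 95% intervals (limma on log2(FPKM + 0.1), 12 tumors) for the palbociclib effect, the anti-PD-1 effect and their interaction, with a dashed line at 0. All 10 palbociclib effects lie below 0, with 8 intervals clear of it, while every interval of the other contrasts spans 0.

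Palbociclib alone against vehicle asked what the CDK4/6 inhibitor did without checkpoint blockade. All 10 genes were lower, against 40.8% of all genes, 0 were called where 0.143% of all genes were, and Cxcl1, Cxcl2, Cxcl3, S100a9 and Csf3 had an unadjusted p under 0.05, where 13.8% of all genes did and 4.36% did in the lower direction. Complete separation of the arms was seen for Cxcl1, Cxcl2, S100a9 and Csf3, 4 of 10, against 6.47% of all genes. Csf3 had the largest difference there, 7.05-fold lower. This comparison leaned on vehicle replicate 3. Without that tumor 8 of the 10 genes were below 0 and 1 had an unadjusted p under 0.05 by limma. The median log2 difference of the members was then -0.91 in place of -2.04.

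Combination against anti-PD-1 asked the same within checkpoint blockade. All 10 genes were again lower, against 42.5% of all genes, 0 were called where 0.00651% of all genes were, and Cxcr2 alone had an unadjusted p under 0.05, where 4.21% of all genes did in that direction. Cxcl5 and Cxcr2 were fully separated, 2 of 10 against 7.49% of all genes. No gene was separated in both comparisons, a pattern found in 0.879% of all genes. These arms share no tumors with palbociclib against vehicle.

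The interaction tested whether the palbociclib difference itself changed under anti-PD-1. No member was called by limma, where 0% of all genes were, and 0 of 10 had an unadjusted p under 0.05, where 5.73% did. The estimates ran from -1.30 ± 1.12 SE for Cxcr2 to 1.73 ± 1.29 SE for Csf3 on the log2 scale, with intervals of -3.76 to 1.16 and -1.11 to 4.57, so differences of several fold in either direction were within the error.

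Anti-PD-1 itself gave differences that were imprecise. In the anti-PD-1 effect all 10 genes were above 0 while 59.3% of all genes were below it, and the member median was 0.34. No member was called by limma, where 0% of all genes were, and 0 of 10 had an unadjusted p under 0.05, where 6.77% did. Cxcl3 had the largest value (log2 difference 1.09 ± 0.79 SE) and Cxcl1 the smallest (0.06 ± 0.55 SE, interval -1.14 to 1.26). The direction was not stable, since it turned for Cxcl1, Cxcl5, S100a8, Csf3 and Csf3r when single tumors were left out. Combination against vehicle, which shares its controls with palbociclib against vehicle, placed all 10 genes lower, from 1.62-fold for Csf3r to 3.36-fold for Csf3, where 46.3% of all genes were lower, with 0 called where 0.013% of all genes were and 0 at an unadjusted p under 0.05 where 17% were. Without vehicle replicate 3, combination against vehicle placed 7 of the 10 lower, with a member median of -0.40 in place of -1.40. Anti-PD-1 against vehicle and combination against palbociclib likewise had 0 members called, where 0% and 0.00651% of all genes were, and 0 at an unadjusted p under 0.05, where 8.4% and 4.52% were.

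Single tumors decided whether any member was called in the palbociclib effect. Without anti-PD-1 replicate 1, Cxcl1 (log2 difference -2.04, adjusted p = 0.0363 by limma) and Cxcl2 (-2.20, adjusted p = 0.0485) were called, with 772 genes called in all against 48. Without vehicle replicate 1, Csf3 was called (-2.45, adjusted p = 0.0396), with 695 genes in all. Without vehicle replicate 3 the median log2 difference of the members was -1.30 in place of -1.79, and 5 members in place of 8 had an unadjusted p under 0.05. That count was also 5 without palbociclib replicate 3, without anti-PD-1 replicate 2 or 3, and without combination replicate 1. All 10 genes stayed below 0 in each of these.

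Markers of other leukocytes had differences of the opposite sign, also without a call. Most genes leaned that way in the palbociclib effect, where only 40.2% of all genes tested were below 0. An unadjusted p under 0.05 by limma was found in 20.5% of all genes, and in 6.44% in the lower direction. In the same contrast 0.313% of all genes were called. The counts below are to be read beside these shares. All 9 macrophage and monocyte markers were above 0 in the palbociclib effect, 7 of them at an unadjusted p under 0.05, with a median log2 difference of 1.21 and 0 called by limma. The complement genes C1qa, C1qb and C1qc, expressed by tissue macrophages, had log2 differences of 1.76, 1.52 and 1.58. The T cell genes Cd3d, Cd3e and Cd5 had 1.36, 1.35 and 1.49, all with an unadjusted p under 0.05 and 0 of 3 called. The macrophage markers summed to 125.8 FPKM in vehicle replicate 3 and to 144.4 and 161.5 in anti-PD-1 replicates 2 and 3, the tumors richest in the neutrophil genes, and to between 393.5 and 900.5 FPKM in the other 9. By arm the sum ran from 125.8 to 688.6 FPKM in vehicle, 543.0 to 889.9 with palbociclib, 144.4 to 510.2 with anti-PD-1 and 393.5 to 900.5 in the combination. C1qa, C1qb and C1qc, the 3 most abundant of the 9 markers, weigh most in these sums. Fat and mast cell markers were also uneven between treated and untreated tumors. The 5 adipocyte markers summed to 335.5, 11.5 and 28.3 FPKM with palbociclib and 807.6, 12.4 and 0.134 in the combination, against 0 to 0.754 in the 6 tumors without palbociclib, and all 5 were above 0 in the palbociclib effect, 4 at an unadjusted p under 0.05, with a median log2 difference of 3.79. Of the 3 mast cell markers, Cpa3 and Mcpt4, which encode granule proteases, had log2 differences of 2.82 and 3.19, both at an unadjusted p under 0.05, and the receptor gene Kit -0.58. Neither list had a gene called by limma. The part of tumor composition in the neutrophil gene levels was not tested.

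**Figure D3:**
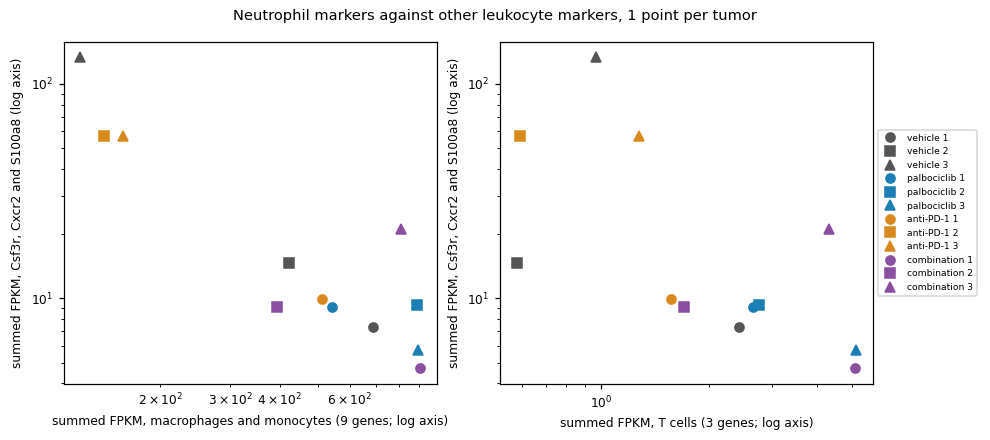
Summed FPKM of Csf3r, Cxcr2 and S100a8 against the summed FPKM of 9 macrophage and monocyte markers (left) and 3 T cell markers (right), log axes, 1 point per tumor, colored by arm. Vehicle replicate 3 and anti-PD-1 replicates 2 and 3 lie at the upper left of the macrophage plot, with 133.2, 57.0 and 57.1 FPKM of the neutrophil markers and the 3 lowest macrophage sums. S100a8 alone gave 115.7, 47.1 and 46.0 FPKM of these neutrophil sums. The most abundant macrophage markers, C1qa, C1qb and C1qc, weigh most in the macrophage sums.

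The ratios of Csf3r and Cxcr2 to a gene of all leukocytes were lower with palbociclib, and both the numerators and the denominator entered that difference. Ptprc, the gene of the common leukocyte antigen CD45, had itself a log2 difference of 0.56 ± 0.28 SE in the palbociclib effect (adjusted p = 0.272 by limma), beside -0.90 for Csf3r and -1.41 for Cxcr2. The leukocyte genes Coro1a and Laptm5 had 0.72 and 0.75, both at an unadjusted p under 0.05, as had 20.5% of all genes in either direction. None of the 3 leukocyte markers was called, where 0.313% of all genes were. Csf3r relative to Ptprc had log2 ratios of 0.02, 0.59 and 2.87 in vehicle and 0.35, -0.06 and -0.18 with palbociclib. The ratios were 1.23, 2.67 and 2.53 with anti-PD-1 and -0.21, 0.76 and 0.43 in the combination. The combination arm lay wholly below the anti-PD-1 arm and the palbociclib arm overlapped vehicle. The mean log2 ratio of treated minus untreated tumors was -1.47 (two-sided exact permutation test over 400 relabelings, p = 0.01, adjusted p = 0.045 over 6 ratios).

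Cxcr2 per Ptprc had log2 ratios of -2.48, -1.91 and 0.55 in vehicle and -2.08, -2.33 and -3.41 with palbociclib. The ratios were -0.50, 0.62 and 0.70 with anti-PD-1 and -4.09, -1.32 and -1.68 in the combination, again wholly below anti-PD-1. Treated minus untreated tumors gave -1.98 (exact permutation p = 0.015, adjusted p = 0.045). For S100a8 per Ptprc the difference was -2.53 (exact permutation p = 0.04, adjusted p = 0.05). Relative to Csf1r, the receptor gene of macrophages and monocytes, the differences of Cxcr2, Csf3r and S100a8 were -2.55, -2.04 and -3.10, with exact permutation p = 0.03, p = 0.045 and p = 0.05 and an adjusted p = 0.05 for each. Both ratios to Ptprc of Csf3r and Cxcr2 kept p under 0.05 with each single tumor left out. The other 4 ratios, with an adjusted p of 0.05, did not pass the threshold of under 0.05. Of these, S100a8 per Csf1r was not under 0.05 before adjustment either. The remaining 3 did not keep p under 0.05 with single tumors left out. Without vehicle replicate 3 Csf3r per Csf1r differed by -1.27 (exact permutation p = 0.1) and Cxcr2 per Csf1r by -1.75 (exact permutation p = 0.065).

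Whether the ligands and the other genes followed Csf3r from tumor to tumor could be asked only in part. Csf3r split the tumors, with vehicle replicate 3 and anti-PD-1 replicates 2 and 3 at 8.08 FPKM or more and the other 9 between 1.49 and 3.91. Over all 12 tumors, as planned, r ran from 0.57 for Cxcl5, which did not pass, to 0.94 for Il1b. The other relations passed there (permutation tests, adjusted p of at most 0.0354), but the split enters those values. Within the 9 lower tumors none of the 9 relations passed. Those tumors were chosen by low Csf3r itself, which narrows its range, so they cannot show that a relation is absent. The values that follow are for these 9 tumors. Il1b had Pearson's r = 0.63 (permutation p = 0.0701, adjusted p = 0.438) and Spearman's rho = 0.62 (permutation p = 0.0852, adjusted p = 0.383). Cxcr2 had r = 0.58 (permutation p = 0.0973, adjusted p = 0.438) and rho = 0.72 (permutation p = 0.0365, adjusted p = 0.328). Without the 2 tumors farthest from the median of Csf3r, r was 0.37 for Il1b and 0.59 for Cxcr2 over 7 tumors. Cxcl1 had r = -0.14 (permutation p = 0.722, adjusted p = 0.948) and rho = -0.22 (permutation p = 0.579, adjusted p = 0.763), and the remaining 6 genes had r from -0.18 to 0.25 and rho from -0.07 to 0.27, all with an adjusted p of at least 0.763.

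As a description, genes with the profiles most like those of Csf3r and Cxcl1 were sought among 11179 genes outside the 10 at a mean of at least 1 FPKM, by Pearson's r of log2 values over the 12 tumors. These coefficients rest in large part on the 3 tumors that stand apart, and all 12 points share the libraries. Closest to Csf3r among these were Ifitm1 (r = 0.97), an interferon-induced membrane protein gene, Sh2d3c (r = 0.95), Nfe2l2 (r = 0.94), the gene of the antioxidant regulator NRF2, Smox (r = 0.93), the gene of spermine oxidase, and Hdc (r = 0.93), the gene of the histamine-forming enzyme. Ifitm1 measured 41.9 FPKM in vehicle replicate 3 and 18.6 and 13.6 in anti-PD-1 replicates 2 and 3, against 1.65 to 9.69 in the rest. Closest to Cxcl1 among these were Ier3 (r = 0.97), Zc3h12a (r = 0.96), whose product degrades inflammatory transcripts, Stc1 (r = 0.95), Fosl2 (r = 0.94), a subunit gene of AP-1, and Slc2a1 (r = 0.93), the gene of the glucose transporter GLUT1. Slc2a1 separated vehicle replicate 2 as well, with 171.5, 172.3, 149.7 and 174.4 FPKM in vehicle replicates 2 and 3 and anti-PD-1 replicates 2 and 3 and 27.2 to 63.6 in the other 8 tumors.

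No gene of the wider neutrophil list was called in the palbociclib effect, where 0.313% of all genes were. Of 28 granule and mature neutrophil genes 27 were tested, 21 of them were below 0 in the palbociclib effect, and 6 had an unadjusted p under 0.05 in the lower direction and 1 in the higher, with a median log2 difference of -0.79 and 0 called by limma. Among all genes 40.2% were below 0 and 6.44% were lower at an unadjusted p under 0.05. The most abundant of them were Slfn4, an interferon-inducible myeloid gene (-0.72 ± 0.46 SE, adjusted p = 0.386), Retnlg, a resistin-like gene typical of mature neutrophils (-1.90 ± 0.72 SE, adjusted p = 0.182), and Clec4d, a myeloid lectin receptor gene (-0.89 ± 0.35 SE, adjusted p = 0.197). Retnlg followed the members, with 414 of its estimated 1152 fragments in vehicle replicate 3. The gene above 0 at an unadjusted p under 0.05 was Cebpe, named after its value was seen, a regulator of late granule genes that averaged 0.160 FPKM. Stfa3 and Asprv1, counted here as neutrophil genes, were highest in palbociclib replicate 2, the tumor with keratinocyte markers, at 18.4 and 15.5 FPKM. In the other tumors Stfa3 lay between 0 and 0.239 FPKM and Asprv1 between 0.202 and 5.77. The stefin genes Stfa2, Stfa2l1 and Stfa3 form a family of close copies, so their separate values are uncertain. Of the 2 primary granule genes tested, Prtn3 had a log2 difference of 0.14 ± 0.31 SE and Ctsg, the cathepsin G gene, -1.15 ± 0.30 SE (adjusted p = 0.095).

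The genes around Il1b lay on both sides of 0. Among all genes 40.2% were below 0 in the palbociclib effect and 0.313% were called. An unadjusted p under 0.05 by limma was found in 20.5% of all genes, and in 6.44% in the lower direction. Of 8 IL-1 pathway genes 5 were above 0 in the palbociclib effect, 3 of them at an unadjusted p under 0.05, with a median of 0.01 and 0 called by limma. Casp1, which encodes the protease that matures the cytokine, had a log2 difference of 0.70 ± 0.25 SE (adjusted p = 0.164), the related cytokine gene Il18 0.35 ± 0.13 SE (adjusted p = 0.172) and the receptor gene Il1r1 -0.13 ± 0.12 SE (adjusted p = 0.571). Of 12 inducers and colony-stimulating factors 11 were tested, with 2 above and 3 below 0 at an unadjusted p under 0.05 and 0 called. Ptgs2, the gene of the prostaglandin enzyme COX-2, had a log2 difference of -1.14 ± 0.44 SE (adjusted p = 0.187), Csf2ra, a receptor subunit gene for GM-CSF, 0.63 ± 0.25 SE (adjusted p = 0.198) and the macrophage growth factor gene Csf1 -0.05 ± 0.18 SE (adjusted p = 0.905). Il17a, a T cell cytokine gene that acts upstream of Csf3, was listed at 0 in all 12 tumors.

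**Figure D4:**
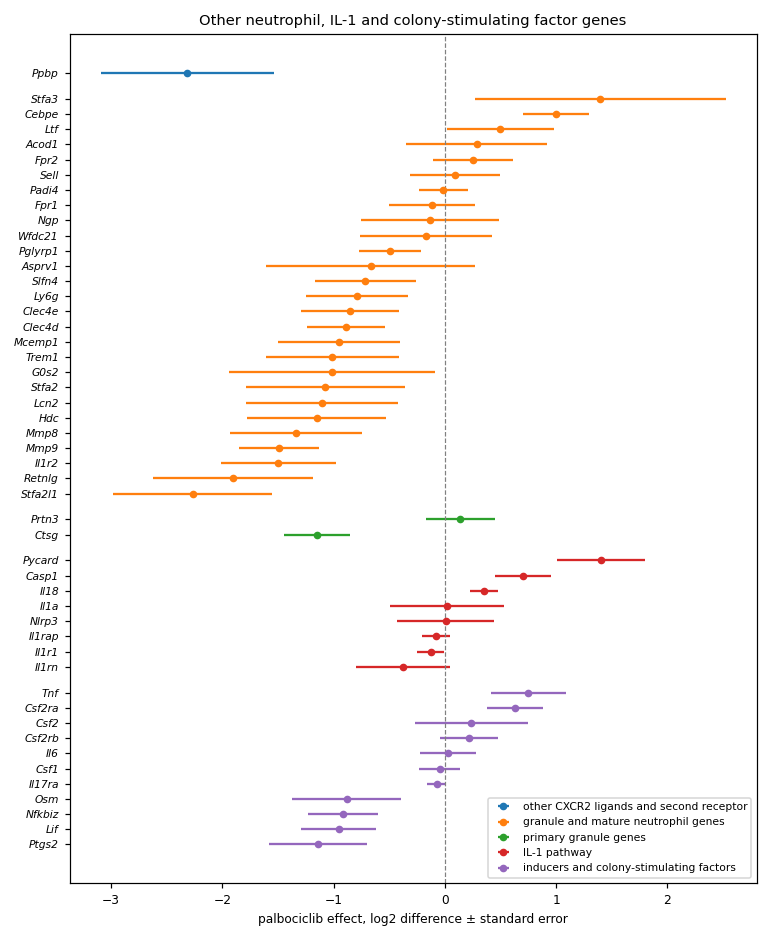
Palbociclib effect (log2 difference ± standard error, limma, 12 tumors) of the other CXCR2 ligand, mature neutrophil, primary granule, IL-1 and inducer genes, grouped by list and sorted within each, with a dashed line at 0. Of the 27 mature neutrophil genes 21 lie below 0, while the IL-1 pathway genes lie on both sides.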

How the data were processed

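The deposited tables give FPKM per gene, 1 table per tumor, made by the authors from RNA of whole tumors. HISAT2 and the mouse build GRCm38 (mm10) are named in the submitters' processing notes, while versions, the counting tool and the annotation are not given in the sources used here. The tables hold 34745 entries. Of entries with the same symbol the one with the highest mean was kept, which left out 67. Fragments were estimated from the FPKM, exon lengths (GENCODE M21) and library totals recovered from genes with 1 fragment. They are approximate, and no count model was fitted.

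limma 3.58.1 in R 4.3.3 was fitted to log2(FPKM + 0.1), with 1 mean per arm for all 12 tumors, a mean-variance trend and Benjamini-Hochberg adjustment over 15350 genes (threshold 0.05, two-sided). The pseudocount shrinks folds of weak genes. The fit was tested on simulated data. Log2 ratios used exact permutation tests within anti-PD-1 level, and relations 100000 permutations (scipy 1.17.1). The relations were planned over 12 tumors and are reported over these and within the 9 below the gap in Csf3r.

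Named were the 10 genes, the 3 most abundant and any called gene of each list, and the 5 genes most like Csf3r and Cxcl1. Exceptions are stated. The list entry Acod1 was matched as Irg1. Members and lists were chosen with earlier results of these data known. Alternatives covered pseudocount, filter, TPM rescaling, quantile normalization, the trend, replicate block and leaving out each tumor.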

Additional observations from a re-analysis of the deposited data

How the results depend on the processing

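All 10 genes stayed below 0 in the palbociclib effect in all 20 alternatives, apart from Cxcl5 and Cxcr2, which the filter at a mean of 1 FPKM removed. The number of members called ranged from 0 to 2 with single tumors left out and was 0 under every other alternative, while the number of genes called was 48 in the reported fit, 0 without a variance trend, 11 with any gene above 0 and 70 at a mean of at least 1 FPKM. Leaving out 1 tumor gave anywhere from 0 to 772 called genes. With 3 tumors an arm and no deposited counts, weak genes such as Cxcl5 and Csf3 are imprecise.

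The replicate numbers did not pair the tumors (correlations of same-numbered deviations from -0.21 to 0.45), and a replicate block gave 129 called genes, 0 members called and 9 at an unadjusted p under 0.05. Within the block the log2 ratios kept their values, but exact permutation tests over pairs gave p = 0.0625 for Cxcr2 (-1.98), Csf3r (-1.47) and S100a8 (-2.53) per Ptprc and p = 0.0938 for Cxcr2 (-2.55) and Csf3r (-2.04) per Csf1r. With single tumors left out, S100a8 per Ptprc ranged from -3.06 to -1.90, Cxcr2 per Csf1r from -3.10 to -1.75, Csf3r per Csf1r from -2.58 to -1.27 and S100a8 per Csf1r from -3.89 to -2.13.

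Over all 12 tumors, as planned, 8 of the 9 relations with Csf3r passed (permutation tests, adjusted p from 0.00054 to 0.0354), with r from 0.61 for Cxcl3 to 0.94 for Il1b, and Cxcl5 did not (r = 0.57, permutation adjusted p = 0.054). Without the 2 farthest tumors r was 0.86 for Il1b, 0.79 for Cxcr2 and 0.29 to 0.69 for the others. After arm means were subtracted, r over the 12 tumors ran from 0.38 for Cxcl5 to 0.94 for Il1b. As 3 tumors stand apart in Csf3r, these values describe the split as well as any relation within it. Over the 12 tumors r of Csf3r with Cxcl5 crossed the threshold at a pseudocount of 1 (0.64) and under quantile normalization (0.60), and with Cxcl3 at a pseudocount of 0.01 (0.58).
With single tumors left out r ranged from 0.61 to 0.85 for Cxcl1, from 0.53 to 0.70 for Cxcl3, from 0.42 to 0.71 for Cxcl5 and from 0.55 to 0.84 for Csf3.

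Directions that turned belonged to contrasts with no member called. The anti-PD-1 effect of Csf3 was -0.16 at a pseudocount of 1, and with single tumors left out it ranged from -0.30 to 0.84 for Csf3, from -0.26 to 0.51 for Cxcl1, from -0.40 to 0.55 for Cxcl5, from -0.16 to 0.98 for S100a8 and from -0.026 to 0.65 for Csf3r. The interaction of Cxcl3 was -0.00040 at a pseudocount of 1. With single tumors left out the interaction ranged from -0.24 to 1.10 for Cxcl2, from -0.53 to 1.56 for Cxcl3, from -1.60 to 0.31 for Cxcl5, from -1.20 to 1.06 for S100a8, from -1.12 to 0.92 for S100a9 and from -1.49 to 0.42 for Il1b. Of 993 alternative values in all, 910 kept their direction and their side of the threshold. The cause of the changes was not tested.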
